A study of Homo sapiens with 6 samples.

Results

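The genes examined here encode the nuclear subunits and assembly factors of mitochondrial complex I. They were taken from the gene names alone, as every protein-coding gene named NDUFA, NDUFB, NDUFC, NDUFS, NDUFV, NDUFAB or NDUFAF with a number, and 46 of the 56757 genes in the deposited tables met this rule. RNA was sequenced from 6 samples of HEK293, an established human embryonic kidney line, with 3 samples labelled WT and 3 labelled MUL1(−/−), in which MUL1, a ubiquitin ligase of the outer mitochondrial membrane, was inactivated with CRISPR-Cas9. Cells of both genotypes were grown in DMEM with fetal calf serum, glutamine, penicillin, and streptomycin, and the labels give no other allele or treatment. The paper describes its quantitative data, in general, as coming from independent experiments. For the RNA samples, the sources used here do not say whether those labelled MUL1(−/−) came from 1 clone. They also do not say whether the 3 samples of a genotype were separate cultures. P-values therefore measure only the spread between these samples, which may be technical.

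Complex I, or NADH:ubiquinone oxidoreductase, takes electrons from NADH and passes them through a flavin and a chain of iron-sulfur clusters to ubiquinone, while its membrane arm pumps protons out of the matrix. The catalytic core subunits are surrounded by supernumerary subunits, and assembly factors help to join separately built modules without staying in the finished enzyme. Core subunits of the membrane arm are encoded by mitochondrial DNA, so that transcripts of both genomes contribute to 1 enzyme. In human embryonic kidney cells, loss of most single subunits is known to impair assembly of the complex or of 1 of its modules.

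The deposited values were raw counts per exon bin, a piece of a gene bounded by the edges of its exons, and the count of a gene was taken as the sum over its bins. Gene totals were 131867202 to 148254074 counts in the WT libraries and 126630872 to 127262799 counts in the MUL1(−/−)-labelled libraries. Values are given as CPM, the count scaled to library size with TMM factors. A read is counted in each bin it touches, and for the median of the 46 genes the sum was 4.74 times the most counted bin. MUL1 itself (chr1:20499448-20508161, GRCh38) had 14.7, 14.6, and 18.3 CPM in WT and 18.0, 16.0, and 18.7 CPM in the MUL1(−/−)-labelled libraries. Its log2 fold change was 0.14 ± 0.10 (SE; edgeR adjusted p = 0.302), the values of the genotypes overlapped, and its RNA therefore did not separate the labels. With a library left out it was 0.07 to 0.25, the highest without WT replicate 3 (edgeR adjusted p = 0.0519), and its neighbours on chromosome 1, the 20 nearest tested genes, had a median of -0.53, so that it was 0.68 after their subtraction. Of 7 genes known to be expressed in HEK293 cells (PAX2, LHX1, SALL1, SALL2, NEFM, NEFL, and VIM), all were detected in every library, of which 2 were higher and 3 were lower in the MUL1(−/−)-labelled libraries. Their summed level was 1093, 990.1, and 874 CPM in WT and 824, 848, and 722 CPM in the MUL1(−/−)-labelled libraries, with VIM the most abundant, and the sums of the genotypes did not overlap with TMM factors but did with library totals. Fibroblast markers (COL1A1, COL3A1, DCN, LUM) summed to 27.2, 32.2, and 25.2 CPM against 38.0, 36.0, and 49.1 CPM, with COL1A1 the most abundant in WT, COL3A1, DCN, and LUM higher, and COL1A1 lower. Markers of leukocytes, hepatocytes, and squamous epithelium summed to at most 1.03 CPM in any library, with PTPRC, CD79A, and TP63 higher, and CD3E had 0 counts in every WT library and at most 1 in the others. The part of these markers in the results that follow was not tested, and in bulk RNA fewer cells of a type and less RNA per cell cannot be told apart.

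No complex I gene differed between the genotypes by a log2 fold change of 1 or more, and most did not pass the test. All 46 genes passed the filter on low counts, at a mean of 19.4 to 317 CPM over the 6 libraries. At an adjusted p under 0.05 (edgeR's quasi-likelihood test, Benjamini-Hochberg over 25025 tested genes), 9 of 46 were higher in the MUL1(−/−)-labelled libraries and 4 were lower, while 33 did not pass. Among all tested genes, 37.5% passed, 19.2% higher and 18.3% lower, so the 13 of 46 called (28.3%) lay below the background. Among the 7401 other protein-coding genes in the same CPM range, 47% passed, 25.3% higher and 21.7% lower. None of the 46 also had an absolute log2 fold change above 1 by edgeR, DESeq2, or limma-voom, against 8.1% of all tested genes and 1.66% of those in the same CPM range. At an unadjusted p under 0.05 the edgeR fit called 18 of 46 (39.1%), against 46.1% of all tested genes and 55.3% of those in the same CPM range.

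The 46 log2 fold changes ranged from -0.49 to 0.73 around a median of 0.02, against a median of 0.00 for all tested genes. In 34 of 46 genes (73.9%) the absolute log2 fold change was within 0.25, against 44.8% of all tested genes and 60.1% of genes in the same CPM range. The median standard error of the 46 was 0.07. Summed over the 46 genes, the level was 4658, 4485, and 4646 CPM in WT and 4607, 4539.6, and 4845 CPM in the MUL1(−/−)-labelled libraries. These sums overlapped with TMM factors, but with library totals every library labelled MUL1(−/−) was above every WT library. The values of the genotypes did not overlap for 21 of the 46 genes, 12 higher and 9 lower, against 48.7% of all tested genes, 24.7% higher and 24% lower.

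Per kilobase of exon bins, the genes spanned a wide range in WT, from 3.22 CPM per kb for the assembly factor NDUFAF5 to 357 CPM per kb for NDUFS5, a small subunit on the intermembrane space side. The corresponding levels in the MUL1(−/−)-labelled libraries were 4.30 and 343 CPM per kb. The length covers the bins of every annotated exon, 7217 bases for NDUFAF5 and 548 for NDUFS5, and a read counts in each bin it touches. These levels therefore depend on the annotation and are not a scale of transcript abundance.

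The NADH module receives the electrons. Of its 3 core subunits, 1 was higher and none was lower. NDUFV2, which carries an iron-sulfur cluster beside the flavin, had 109, 101, and 106 CPM in WT and 127, 124, and 122 CPM in the MUL1(−/−)-labelled libraries. Every library labelled MUL1(−/−) exceeded every WT library, with a log2 fold change of 0.23 ± 0.06 (SE; edgeR adjusted p = 0.00931). NDUFS1, the largest core subunit and a carrier of iron-sulfur clusters of the chain, had 108, 107, and 112 CPM in WT and 98.5, 98.3, and 102 CPM in the MUL1(−/−)-labelled libraries. Its libraries also did not overlap and were lower, but its log2 fold change of -0.13 ± 0.06 (SE; edgeR adjusted p = 0.117) did not pass. The call for NDUFS1 depended on the bins used, since it was lower with unshared bins alone (log2 fold change -0.19, edgeR adjusted p = 0.0314) and higher with the most counted bin (0.27, edgeR adjusted p = 0.0192). That bin, of 6610 bases (chr2:206116501-206123110), is touched by an exon of another gene, so its counts may not all come from NDUFS1. NDUFV1, the flavin-binding subunit that oxidizes NADH, had a log2 fold change of -0.02 ± 0.07 (SE; edgeR adjusted p = 0.884).

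The quinone module hands the electrons to ubiquinone, and 1 of its core subunits was lower. NDUFS7, whose iron-sulfur cluster is the last before ubiquinone, had 188, 166, and 153 CPM in WT and 117, 109, and 134 CPM in the MUL1(−/−)-labelled libraries. All 3 WT libraries were above all 3 labelled MUL1(−/−), and the log2 fold change of -0.49 ± 0.09 (SE; edgeR adjusted p = 5.81e-04) was the lowest of the 46 genes. An exon of another gene touches bins that hold 48.3% of the NDUFS7 counts, and with unshared bins alone the log2 fold change was -0.52. NDUFS3 and NDUFS8 had log2 fold changes of -0.03 and 0.00 and did not pass.

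Around these cores in the matrix arm, 9 supernumerary subunits gave 1 higher and 2 lower genes. NDUFA7 had 55.5, 51.0, and 42.8 CPM in WT and 61.4, 61.1, and 75.5 CPM in the MUL1(−/−)-labelled libraries. Its genotypes did not overlap, and its log2 fold change was 0.41 ± 0.10 (SE; edgeR adjusted p = 0.00589). NDUFA5 had 122, 121, and 141 CPM in WT and 88.3, 105, and 103 CPM in the MUL1(−/−)-labelled libraries. It was lower in each library labelled MUL1(−/−) than in any WT library, with a log2 fold change of -0.37 ± 0.08 (SE; edgeR adjusted p = 0.00269). NDUFS6, a zinc-binding subunit needed late in assembly, had 138, 133, and 134 CPM in WT and 112, 110.5, and 115 CPM in the MUL1(−/−)-labelled libraries. Every library labelled MUL1(−/−) lay below every WT library, and the fall of 0.26 on the log2 scale passed the test (SE 0.06, edgeR adjusted p = 0.00400). The others, NDUFS4, NDUFV3, NDUFA2, NDUFA6, NDUFA9, and NDUFA12, had log2 fold changes of -0.18 to 0.16 and did not pass.

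The 2 largest log2 fold changes of the 46 genes lay in the proximal membrane arm, where 2 of 9 genes were higher and none was lower. NDUFA3 had 56.6, 55.0, and 54.3 CPM in WT and 88.5, 85.8, and 101 CPM in the MUL1(−/−)-labelled libraries. Its fitted fold was 1.66, a log2 fold change of 0.73 ± 0.07 (SE; edgeR adjusted p = 4.31e-06), and the lowest library labelled MUL1(−/−) was well above the highest WT library. NDUFA11, a membrane subunit known to lie where complex I meets complex III in supercomplexes, had 126, 119, and 125 CPM in WT and 186, 177, and 203 CPM in the MUL1(−/−)-labelled libraries. Its fitted fold was 1.53, with a log2 fold change of 0.62 ± 0.07 (SE; edgeR adjusted p = 9.43e-06) and no overlap. In both genes the third library labelled MUL1(−/−) was the highest.

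The other 7 genes of the proximal arm did not pass. NDUFA13, also known as GRIM-19 and first described as a cell death regulator, had 225, 220.1, and 209 CPM in WT and 224, 221, and 235 CPM in the MUL1(−/−)-labelled libraries. The values overlapped, with a log2 fold change of 0.06 ± 0.06 (SE; edgeR adjusted p = 0.527). NDUFC1, a small membrane subunit, had 54.6, 51.6, and 59.5 CPM in WT and 51.4, 49.7, and 49.7 CPM in the MUL1(−/−)-labelled libraries. Every library labelled MUL1(−/−) was slightly below the lowest WT library, but the log2 fold change of -0.13 ± 0.07 (SE; edgeR adjusted p = 0.166) did not pass. NDUFA1, NDUFA8, NDUFA10, NDUFC2, and NDUFS5 had log2 fold changes from -0.09 to 0.14.

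In the distal membrane arm, the far end of the proton-pumping part, 3 of 11 genes were higher and 1 was lower. NDUFB8, a subunit that is unstable outside the complex and is often used as a marker of its assembly, had 166, 154, and 169.6 CPM in WT and 119, 113, and 129 CPM in the MUL1(−/−)-labelled libraries. It was lower in all 3 libraries labelled MUL1(−/−), with a log2 fold change of -0.44 ± 0.07 (SE; edgeR adjusted p = 2.06e-04) and no overlap. NDUFB9, a protein of the LYR family, had 86.5, 83.2, and 103 CPM in WT and 113, 107, and 113 CPM in the MUL1(−/−)-labelled libraries. Its log2 fold change was 0.28 ± 0.08 (SE; edgeR adjusted p = 0.0138), and the third WT library lay close to the lowest library labelled MUL1(−/−) without overlap. NDUFB1 had 45.8, 46.3, and 49.8 CPM in WT and 57.0, 54.1, and 59.8 CPM in the MUL1(−/−)-labelled libraries. NDUFB5 had 102, 95.9, and 96.9 CPM in WT and 107, 120.3, and 125 CPM in the MUL1(−/−)-labelled libraries. Both were higher without overlap, with log2 fold changes of 0.27 ± 0.07 (SE; edgeR adjusted p = 0.00854) and 0.25 ± 0.07 (SE; edgeR adjusted p = 0.0132). When WT replicate 2 was left out, NDUFB1, NDUFB5, NDUFB9, and NDUFV2 no longer passed and 5 genes were higher, and without WT replicate 1 NDUFB1 and NDUFB9 did not pass. NDUFB5 was also lost without MUL1(−/−) replicate 2. The remaining 7 genes of the distal arm had log2 fold changes of -0.12 to 0.08.

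NDUFAB1 and NDUFA4 stand apart by function. NDUFAB1, the mitochondrial acyl carrier protein, serves fatty acid synthesis as well as complex I, and had 106, 104, and 109 CPM in WT and 96.7, 96.9, and 95.3 CPM in the MUL1(−/−)-labelled libraries. The libraries did not overlap, but the log2 fold change of -0.14 ± 0.06 (SE; edgeR adjusted p = 0.0849) did not pass. NDUFA4, named for complex I and later assigned to complex IV, had 157, 156, and 175 CPM in WT and 152, 152, and 162 CPM in the MUL1(−/−)-labelled libraries. Its values overlapped and its log2 fold change was -0.07 ± 0.07 (SE; edgeR adjusted p = 0.497).

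**Figure D1:**
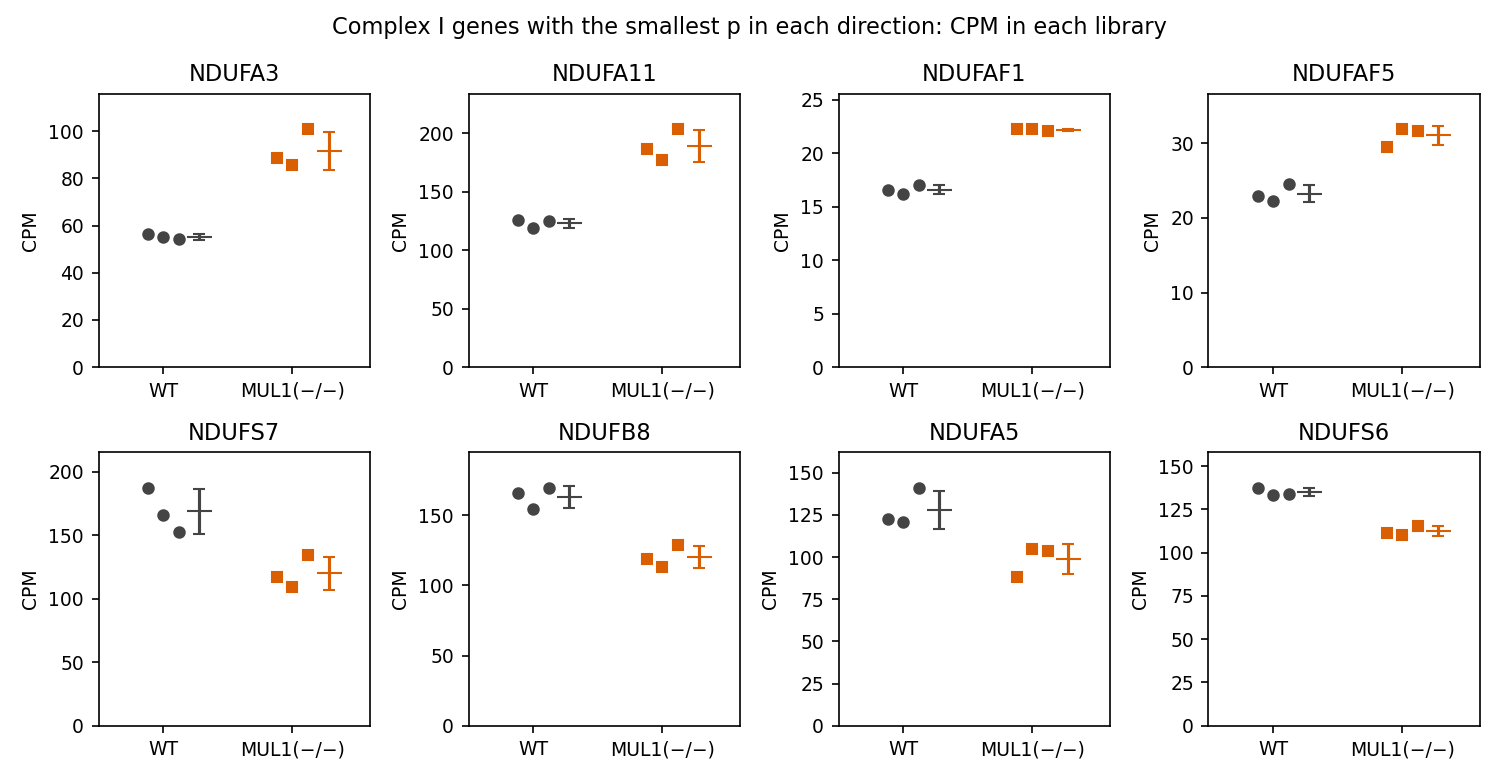
CPM (y axis, starting at 0) of 8 complex I genes in each library, for WT (circles) and MUL1(−/−) (squares), with mean ± SD beside the points (n = 3). In the upper row every MUL1(−/−) library lies above every WT library, in the lower row every one lies below, and the largest fitted fold is 1.66 for NDUFA3.

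The 8 assembly factors named NDUFAF all had log2 fold changes above 0, with a median of 0.18, but only 2 passed the test and none was lower. NDUFAF1, a member of the MCIA complex that builds part of the membrane arm, had 16.6, 16.1, and 17.0 CPM in WT and 22.2, 22.2, and 22.1 CPM in the MUL1(−/−)-labelled libraries. The values labelled MUL1(−/−) were nearly identical and all above WT, and the log2 fold change was 0.42 ± 0.08 (SE; edgeR adjusted p = 6.38e-04). NDUFAF5, an enzyme known to hydroxylate an arginine of NDUFS7 during early assembly, had 23.0, 22.3, and 24.5 CPM in WT and 29.6, 31.9, and 31.7 CPM in the MUL1(−/−)-labelled libraries. It was higher without overlap, with a log2 fold change of 0.42 ± 0.08 (SE; edgeR adjusted p = 6.32e-04), while NDUFS7 itself was lower. NDUFAF3, which acts with NDUFAF4 on the early quinone module, had 84.9, 78.9, and 70.8 CPM in WT and 79.5, 78.7, and 78.7 CPM in the MUL1(−/−)-labelled libraries. The log2 fold change was 0.01 ± 0.07 (SE; edgeR adjusted p = 0.901), and the 3 values labelled MUL1(−/−) lay within the range of WT. NDUFAF2, NDUFAF4, NDUFAF6, NDUFAF7, and NDUFAF8 had log2 fold changes of 0.07 to 0.20 and did not pass. NDUFAF4 and NDUFAF8 passed without WT replicate 3, with library totals, with no filter on low counts, and with the replicate block, which raised the count of assembly factors called to 4 of 8.

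To compare each gene with its surroundings, each log2 fold change was set beside the median of the 20 nearest tested genes on its chromosome, 10 on each side. For the 13 genes that passed, the absolute median of the neighbours was itself 0.35 (median of the 13), against 0.06 for the 33 genes that did not pass and 0.11 for all tested genes. Among all tested genes that passed, which were likewise selected for a change, it was 0.17, and 0.19 for those in the same CPM range. The neighbours' median had the sign of the gene's own change for 11 of the 13, 7 of 9 higher and 4 of 4 lower (84.6%), against 73.1% of all genes that passed and 76.1% of those in the same CPM range. Across the 46 genes, Pearson's r between the gene and its neighbours was 0.71, against 0.35 across all tested genes, a description only, since all points come from the same 6 libraries and nearby genes share neighbours.

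NDUFS7 fell by 0.49 on the log2 scale in a stretch of chromosome 19 whose neighbours had a median of -1.18, so that it was lower by less than they were. NDUFB8 likewise fell less than its neighbours on chromosome 10, whose median was -0.66. NDUFA11 (0.72 for its neighbours), NDUFA7 (0.39), and NDUFA5 (-0.35) lay among genes with a median near their own change. NDUFA3 was higher than its neighbours, whose median was 0.45, by 0.28. After the neighbours' median was subtracted, the sign turned in 4 of the 13 genes, to -0.10 for NDUFA11, -0.19 for NDUFB5, 0.22 for NDUFB8, and 0.69 for NDUFS7. By contrast, the neighbours of NDUFAF1 had a median of 0.01, those of NDUFB1 0.02 and those of NDUFB9 -0.00122, and NDUFV2 was higher among neighbours that were lower (-0.31). The part of a regional difference in the changes of single genes was not tested.

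Chromosome 19 carries 6 of the 46 genes, of which NDUFA3, NDUFA7, and NDUFA11 were higher and NDUFS7 was lower. Of all 1758 tested genes of this chromosome, 55.1% passed, 769 higher and 200 lower, with a median log2 fold change of 0.32. Among the 40 genes on other chromosomes, 6 were higher and 3 were lower (22.5% called), against 36.2% called of the 23267 tested genes off chromosome 19.

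**Figure D2:**
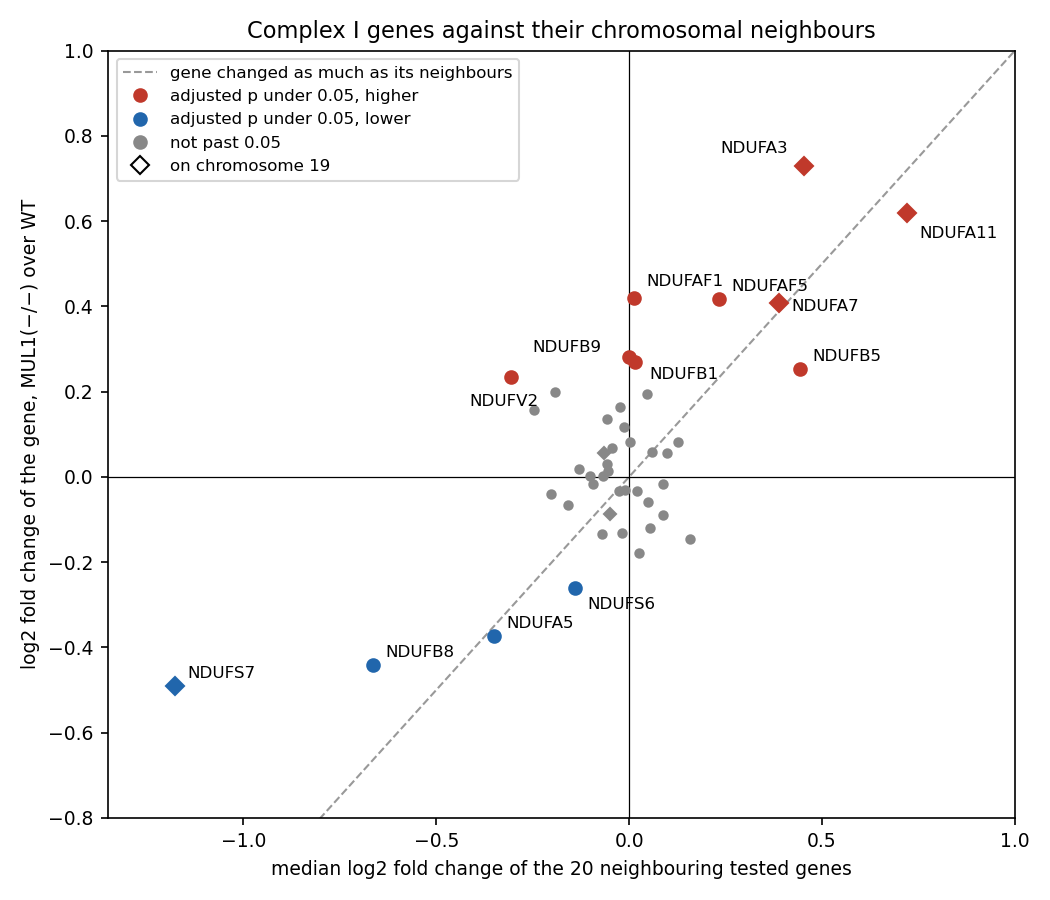
Log2 fold change of the complex I genes (y axis) against the median log2 fold change of its 20 neighbouring tested genes (x axis), with diamonds for genes on chromosome 19 and a dashed line where both are equal. Most genes that did not pass lie near the origin, NDUFAF1, NDUFB1, and NDUFB9 are high with neighbours near 0, and NDUFS7 and NDUFB8 lie above the dashed line.

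Among the 11 called genes with an entry in the promoter table, an exact match to a searched motif was found in 2. Their upstream sequences are shown, with those of the 2 highest genes, in which no exact match was found. The sequences of these 4 genes were chosen because nuclear complex I genes are classical targets of the factors NRF1 and GABPA. They are the 120 bases before the RefSeq transcript start on GRCh38.p14, written 5′ to 3′ on the strand of the gene, with an NRF1 motif in capitals, and lie at chr19:1383787-1383906 (plus strand) for NDUFS7, chr5:1801287-1801406 (plus) for NDUFS6, chr19:54102735-54102854 (plus) for NDUFA3, and chr19:5903791-5903910 (minus) for NDUFA11.
NDUFS7: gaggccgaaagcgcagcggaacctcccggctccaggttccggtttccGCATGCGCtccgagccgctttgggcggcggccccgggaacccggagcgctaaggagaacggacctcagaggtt
NDUFS6: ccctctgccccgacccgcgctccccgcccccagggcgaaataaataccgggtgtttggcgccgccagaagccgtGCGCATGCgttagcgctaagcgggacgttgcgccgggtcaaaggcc
NDUFA3: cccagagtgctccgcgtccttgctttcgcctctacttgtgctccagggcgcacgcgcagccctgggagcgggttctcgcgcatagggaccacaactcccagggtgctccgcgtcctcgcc
NDUFA11: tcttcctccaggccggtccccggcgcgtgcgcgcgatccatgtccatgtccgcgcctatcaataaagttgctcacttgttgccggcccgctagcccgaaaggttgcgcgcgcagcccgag

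Of the 46 genes, 39 had an entry in the RefSeq promoter table, and 250 bases upstream of the start were searched on both strands. Only the first entry of each gene was taken. That of NDUFA5 (chr7:123601652-123601771, minus strand) lies far upstream of the gene as annotated here (chr7:123536997-123558255). The comparison used all 35116 entries, not limited to the first of each gene or to expressed genes, so the percentages come from unlike sets. The NRF1 motif (GCGCATGC or its reverse complement GCATGCGC) was in 4 of 39 (10.3%), against 2.63% of 35116 promoters, namely those of NDUFS7 and NDUFS6, which were lower, and of NDUFA6 and NDUFB4, which did not pass. The ETS motif bound by GABPA (CCGGAAGT) was in 2 of 39 (5.13%), NDUFA13 and NDUFS1, against 3.42% of all promoters. The motifs AAGATGGCG of YY1 and TCAAGGTCA of ESRRA were in 0 of 39, against 0.652% and 0.319% of all. None of the motifs contains another, and matches were exact. Variants were not searched, and the sequences shown hold near matches to the NRF1 motif in NDUFA3 (gcgcacgc) and NDUFA11 (gcgtgcgc). The counts of genes with a motif therefore cover the exact letters only. A match is a description of these letters and not of binding.

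Regulators of respiratory genes were compared from a list of 11. Of these, 1 was higher and 4 were lower, or 45.5% called, against 37.5% of all tested genes. GABPA, the DNA-binding subunit of nuclear respiratory factor 2, had 80.4, 77.7, and 78.5 CPM in WT and 56.5, 62.8, and 71.8 CPM in the MUL1(−/−)-labelled libraries and a log2 fold change of -0.31 ± 0.08 (SE; edgeR adjusted p = 0.00911). PPARGC1A, a coactivator of mitochondrial biogenesis present at a low level, had 6.11, 6.26, and 5.73 CPM in WT and 4.56, 5.45, and 3.42 CPM in the MUL1(−/−)-labelled libraries and a log2 fold change of -0.43 ± 0.14 (SE; edgeR adjusted p = 0.0295). The genotypes did not overlap for either gene. ESRRA (log2 fold change -0.26) and PPRC1 (-0.34) were lower and TFB2M (0.31), a mitochondrial transcription factor, was higher. NRF1 itself had 24.8, 25.8, and 25.1 CPM in WT and 26.4, 25.6, and 30.1 CPM in the MUL1(−/−)-labelled libraries, with overlapping values and a log2 fold change of 0.12 ± 0.08 (SE; edgeR adjusted p = 0.289). YY1, TFAM, GABPB1, PPARGC1B, and TFB1M did not pass. The count of regulators called rested on single libraries, and was 2 without WT replicate 1 or 2 and 3 without MUL1(−/−) replicate 1 or 3.

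Among 21 other complex I genes, 3 were higher and 6 were lower, or 42.9% called, against 37.5% of all tested genes. The 7 subunits encoded by mitochondrial DNA gave 5 lower and none higher. Their summed level was 5649, 5753, and 5942 CPM in WT and 4732, 5040.4, and 5029 CPM in the MUL1(−/−)-labelled libraries, without overlap with TMM factors or library totals. The summed level of the 46 nuclear genes overlapped with TMM factors, but with library totals it was higher in every library labelled MUL1(−/−). MT-ND3, MT-ND4, MT-ND4L, MT-ND5, and MT-ND6 had log2 fold changes of -0.30 to -0.19, while MT-ND1 (-0.14) and MT-ND2 (-0.20) did not pass. The tested genes around them on the mitochondrial genome, which include other MT-ND genes, had medians of -0.27 to -0.18. MT-ND4 fell by about as much as its neighbours (-0.26) and MT-ND5 by less (-0.26). MT-ND3 (-0.29, neighbours -0.18), MT-ND4L (-0.27, neighbours -0.22), and MT-ND6 (-0.30, neighbours -0.22) fell by more. Counting did not use the strand, so MT-ND6, encoded on the opposite strand to the others, cannot be told apart from transcripts of the opposite strand.

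The 14 nuclear genes of the list, 13 assembly factors and NDUFA4L2, gave 3 higher and 1 lower, or 28.6% called, against 37.5% of all tested genes. ECSIT and ACAD9, partners of NDUFAF1 in the MCIA complex, had log2 fold changes of 0.47 ± 0.08 (SE; edgeR adjusted p = 2.16e-04) and 0.21 ± 0.07 (SE; edgeR adjusted p = 0.0255). TMEM126B, another partner, had 56.3, 55.5, and 62.0 CPM in WT and 48.6, 53.4, and 52.0 CPM in the MUL1(−/−)-labelled libraries and did not pass at -0.17 ± 0.07 (SE; edgeR adjusted p = 0.0750). COA1 (log2 fold change -0.15, lower without overlap) and TMEM186 (0.09), also in this list, did not pass. ECSIT lies on chromosome 19 among neighbours with a median of 0.52, and ACAD9 among neighbours with a median of 0.04. TMEM70, which aids assembly of the membrane arm and of ATP synthase, was higher (0.44), and NUBPL, which delivers iron-sulfur clusters, was lower (-0.36). NDUFA4L2, a relative of NDUFA4 known to be induced by HIF-1, was rare at 1.33, 1.36, and 1.08 CPM in WT and 1.85, 1.50, and 1.46 CPM in the MUL1(−/−)-labelled libraries. The libraries did not overlap, and its log2 fold change of 0.35 ± 0.16 (SE; edgeR adjusted p = 0.0976) did not pass.

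**Figure D3:**
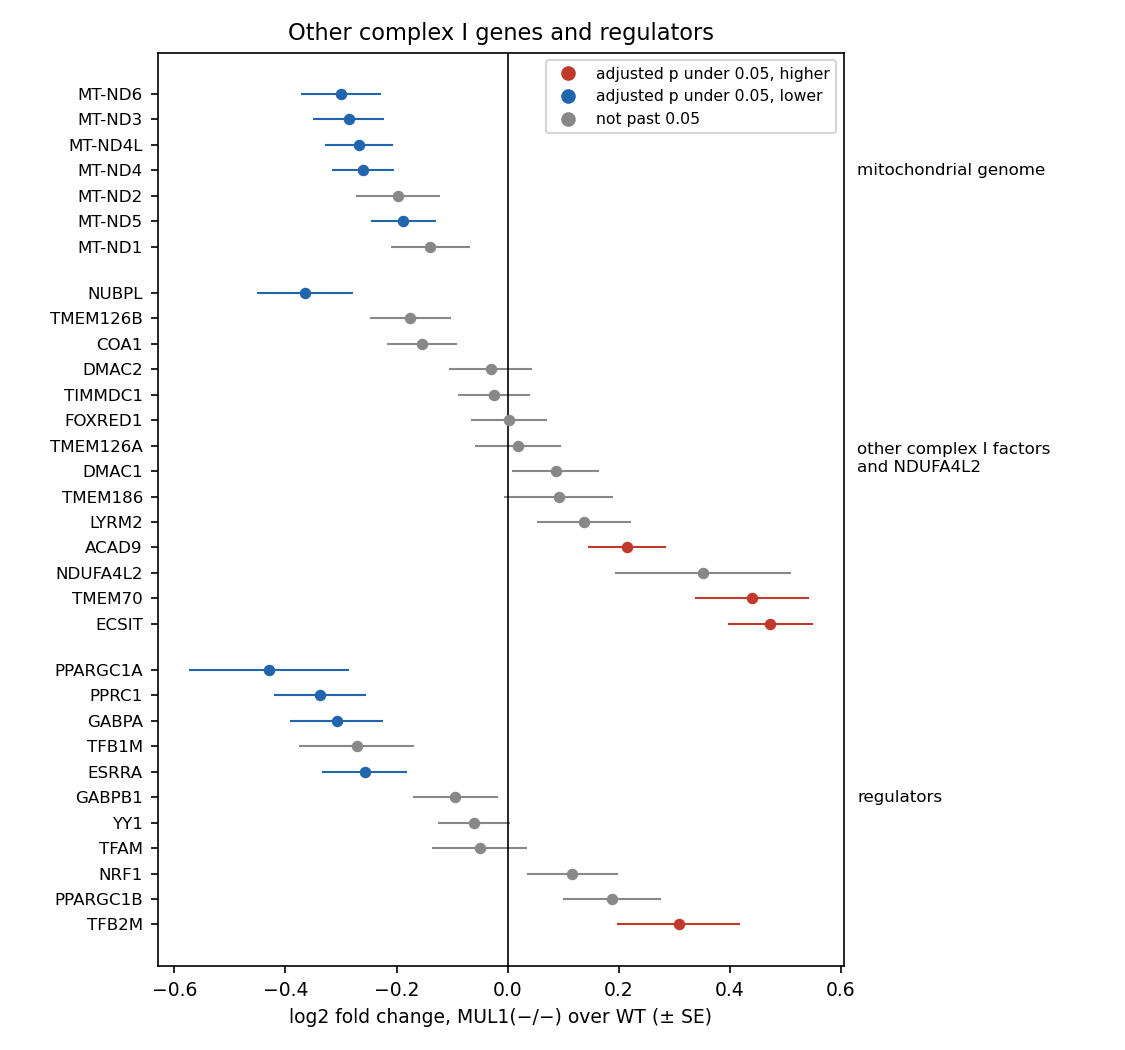
Log2 fold change, MUL1(−/−) over WT (x axis, edgeR, bars ± SE, n = 3 per genotype), of 7 complex I genes of the mitochondrial genome, 14 other nuclear complex I genes, and 11 regulators. All 7 mitochondrial genes lie left of 0, with 5 past an adjusted p of 0.05, and the other groups lie on both sides.

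The exon bins also show whether parts of a gene changed relative to the rest of it. With edgeR's diffSpliceDGE (Simes p per gene, adjusted over 16245 genes), 7 of 46 genes were called, against 11.1% of all tested. The count was 2 without WT replicate 2 or MUL1(−/−) replicate 1, 3 without WT replicate 1 or MUL1(−/−) replicate 3, and 5 with unshared bins. NDUFA2, a matrix arm subunit with a thioredoxin-like fold, did not pass as a gene (log2 fold change -0.02) but had the smallest p of the 46 for its bins. Its last bin, 11 of 11, of 517 bases (chr5:140638740-140639256, minus strand), is an exon of 1 noncoding processed transcript among 4 annotated transcripts and holds no coding sequence. It had 15, 32, and 39 counts in WT and 81, 54, and 83 counts in the MUL1(−/−)-labelled libraries, and its share of the gene's counts was 0.112, 0.229, and 0.289% in WT and 0.636, 0.438, and 0.627% in the MUL1(−/−)-labelled libraries. The shares did not overlap, at a mean of 0.210% ± 0.0897 and 0.567% ± 0.112 (SD, n = 3), with a log2 difference in usage of 1.43 (adjusted p = 5.28e-06, edgeR), and the call held with each of the 6 libraries left out in turn. The bin is thus a small part of NDUFA2 counts in both genotypes.

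The others were less stable. In NDUFB10, bin 11 of 14, an exon part of 160 bases (chr16:1961637-1961796, plus strand) in 1 coding transcript and 1 with a retained intron, had 609, 608, and 616 counts in WT and 350, 432, and 527 counts in the MUL1(−/−)-labelled libraries, or a mean of 3.54% ± 0.0768 and 2.53% ± 0.613 of the gene's counts (SD, n = 3), with a log2 difference in usage of -0.49 (adjusted p = 0.00137, edgeR). It was called in 5 of 6 fits with a library left out, but not by the F test over all bins of the gene (adjusted p = 0.0979, edgeR). In NDUFV2, bin 7 of 29 (chr18:9103092-9103433, plus strand), found in a coding transcript and in one subject to nonsense-mediated decay, took 0.627, 0.802, and 0.833% in WT and 0.420, 0.584, and 0.366% in the MUL1(−/−)-labelled libraries, with a log2 difference of -0.72 (adjusted p = 0.00935, edgeR). The call held in 2 of 6 fits with a library left out. It also passed with the F test over all bins of the gene (adjusted p = 8.67e-07, edgeR) and with unshared bins (adjusted p = 0.0100, edgeR). In NDUFC2 and NDUFS1, the bins with the smallest p (chr11:78068349-78069855 and chr2:206116501-206123110, minus strand) rose in share, from a mean of 1.50% to 2.06% and from 8.49% to 11.2%. However, an exon of another gene touches both bins. The fit with unshared bins left both out, so it could not test them, and neither gene was called there.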

How the data were processed

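Total RNA of HEK293 WT and MUL1(−/−) samples (n = 3 each) was made into SMARTER mRNA-Seq libraries. The authors deposited a table of raw, unnormalized counts per exon bin for each sample, and the submitters' processing notes name Trimmomatic 0.36, STAR 2.5.2b, and GRCh38. The counting program is not given in the sources used here. The tables held 597973 bins under 54848 identifiers, 2031 of them joining overlapping genes of a strand. Joined bins were given to genes by GENCODE 29 exons (20.3% of counts), and those that several genes or no gene could claim were dropped (0.637% and 0.055%). Counting did not use the strand, and 3 counts equal 0.0205 to 0.0236 CPM, which covers counting error only.

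Gene counts were fitted with edgeR 4.0.16 in R 4.3.3 (filterByExpr, TMM, quasi-likelihood test, Benjamini-Hochberg over all tested genes), with genotype as the only term. CPM use TMM-scaled library sizes. Exon bins were compared with diffSpliceDGE. Alternatives were DESeq2 1.42.0, limma-voom (limma 3.58.1), library totals or RLE factors in place of TMM, low counts kept or a minimum of 1 CPM in 3 samples, the replicate block, each library left out, the most counted bin, unshared bins, glmTreat, and subtraction of the median of 20 neighbouring genes or of the decile of GC content and length; for bins, a filter of 10 counts in 3 samples and the F test. The edgeR, DESeq2, voom, replicate block, and diffSpliceDGE (Simes) fits were tested on simulated data. Promoter sequences are from RefSeq (GRCh38.p14). Tables and figures used Python 3.11.15, pandas 2.3.3, numpy 2.4.6, and matplotlib 3.10.9.

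The 46 genes and the gene lists were chosen with earlier results of these data known. Genes with values in every library are MUL1, the 5 called genes with the smallest p in each direction, the highest and lowest log2 fold change of each role, NDUFA13, NDUFA4, NDUFAB1, NDUFA4L2, and for bins the 5 called genes with the smallest p. NDUFB1 and NDUFB5, GABPA, PPARGC1A, NRF1, and TMEM126B were added after their values were seen. Some results that this rule covers are not reported here, and 1 of the 46 genes is counted but not plotted.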

Additional observations from a re-analysis of the deposited data

How the results depend on the processing

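Over 15 refits of all genes, 9 of the 13 called complex I genes were called in every one (NDUFA3, NDUFA5, NDUFA7, NDUFA11, NDUFAF1, NDUFAF5, NDUFB8, NDUFS6, and NDUFS7), none changed direction, and 0 of 46 passed both thresholds in any refit or with glmTreat. The median log2 fold change of the 46 genes, 0.02, was 0.0789 with library totals, where the median of all tested genes was 0.06, and 0.0735 after the neighbours' median was subtracted. With library totals 13 were higher and 4 lower. With each library left out, the count of higher genes ranged from 5 to 12, that of regulators called from 2 to 6, and that of genes with changed bin usage from 2 to 9. NDUFB5 did not pass with the most counted bin (adjusted p = 0.11, edgeR).

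Same-numbered libraries of the genotypes deviated from their group means with r of -0.0752, 0.167, and 0.107 (across 15843 genes). The mean for different numbers was -0.0296. Deviations cancel within a genotype, which ties this mean to the same-number values, so the comparison cannot decide whether same-numbered samples were paired. In the labels they share only a number. With the replicate block 11 genes were higher, adding NDUFAF4 and NDUFAF8, and 4 lower, with a median log2 fold change of 0.02. The block left the count of genes with changed bin usage at 7.

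The sign of NDUFS1 turned with the most counted bin (0.27, edgeR adjusted p = 0.0192), which an exon of another gene touches. With unshared bins alone NDUFS1 was at -0.19. The sign of NDUFAF3 turned with a library left out (-0.0643 to 0.0723, the lowest without WT replicate 3). Among the genes described library by library, subtraction of the neighbours' median also turned NDUFA11 (-0.10), NDUFB5 (-0.19), NDUFB8 (0.22), NDUFS7 (0.69), and NDUFA4 (0.0937). Subtraction of the median of the decile of GC content and length turned no sign among those of the 46 genes with CPM given in every library. Among the genes described by their bins, it turned NDUFA2 (from -0.02 to 0.03). It left the median of the 46 at 0.02. The cause of the turned signs was not tested further. Reads counted in several bins make the sums less precise than their size implies.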

Other observations

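Pseudogenes of complex I genes were also in the tables. A total of 59 pseudogenes of 19 of the 46 genes were listed, and their summed counts were between 0 and 1.39% of those of the parent gene, with the highest share for NDUFV2. The NDUFV2 pseudogene had 216, 183, and 233 counts in WT and 215, 214, and 213 counts in the libraries labelled MUL1(−/−), which overlapped, while NDUFV2 itself was higher. The 5 NDUFA3 pseudogenes together had 30, 44, and 32 counts in WT and 48, 41, and 30 counts in the libraries labelled MUL1(−/−). The 2 NDUFB1 pseudogenes together had 24, 38, and 26 counts in WT and 14, 13, and 14 counts in the libraries labelled MUL1(−/−). They were lower without overlap, while NDUFB1 itself was higher. For the other called genes with listed pseudogenes, the pseudogene counts of the genotypes overlapped. How reads that match a gene and its pseudogene were divided is not given in the sources used here.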
